A study of Mus musculus with 26 samples.

Results

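The striatum of R6/1 mice was compared with that of wild-type mice at 8 weeks of age by RNA sequencing. R6/1 mice model Huntington's disease: exon 1 of human huntingtin is inserted as a transgene and expressed from the human promoter. The wild-type group lacks it, and no other allele, agent or treatment is named for either group. Each group has 3 libraries, 6 of the 26 in the series. The other libraries compare R6/1 with wild type at 4 weeks and, after a control adeno-associated virus (AAV), at 10 weeks, the model labelled CHL2 with wild type at 1 year, and R6/1 given Elk-1 AAV. The genes described are the 14105 of 14320 rows of the 8-week table with a mean of at least 0.5 FPKM over the 2 group values. FPKM counts the fragments of a transcript, scaled to its length and to the size of the library. The rows left out were 38 for microRNAs or small nucleolar RNAs and 177 below that mean. Just inside it were Kcnj14 (0.561 in wild type and 0.441 in R6/1), 9030224M15Rik (0.637 and 0.366) and Adra2b (0.572 and 0.434). Just outside were Abcc12 (0.723 and 0.276), Slco4a1 (0.401 and 0.598) and Plek2 (0.507 and 0.492).

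Most neurons of the striatum are spiny projection neurons, which release GABA and are driven by glutamate from the cortex and thalamus and by dopamine from the midbrain. They form a direct pathway, marked by the dopamine receptor gene Drd1a and the peptide precursors Tac1 and Pdyn, and an indirect pathway, marked by Drd2, Adora2a and Penk. These are the cells most affected in Huntington's disease, and loss of their transcripts is a known feature of its mouse models. Markers of these cells were abundant in wild type, as the tissue label requires: Ppp1r1b stood at 979 FPKM, Penk at 803, Drd2 at 104 and Drd1a at 68.4.

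Every FPKM below is the authors' pooled value for a group, wild type first and R6/1 second. The depth of each library and the spread between libraries are unknown, so no error is attached. A change is log2 of (R6/1 + 1)/(wild type + 1), which understates the fold of genes of low level. A gene is said to have fallen or risen where the q-value in the authors' deposited table was below 0.05. Where a gene that fell or rose is given with its levels and no q, that table holds its lowest value, 0.00160. The labels do not say whether libraries came from separate animals, so the p-values cover the spread among these libraries alone, which may be technical. In whole tissue, fewer cells of a type and less RNA per cell cannot be told apart.

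The difference between the genotypes at 8 weeks was mostly one of lower values in R6/1. The authors' deposited table called 867 genes, 6.15% of those described, of which 754 (5.35%) were lower and 113 (0.801%) higher. The median change over all 14105 genes was 0.0059, with 6851 values lower and 7254 higher. Changes were larger on the lower side: 95 genes fell by at least 1 on the log2 scale, and only Gm6682 and Avp rose by that much. The median change was -0.60 among genes that fell and 0.51 among those that rose. Genes that fell held 11.3% of the summed FPKM in wild type and 7.05% in R6/1, and genes that rose held 0.544% and 0.839%. Of the 3526 genes with the highest mean level (24.2 FPKM and above) 9.05% fell, against 3.77% of the 3527 lowest (up to 3.69 FPKM). The shares that rose were 0.652% and 0.737%. Elk1, the transcription factor gene that the series is about, stood at 23.4 and 20.0 (the authors' deposited table: q = 0.428). Endogenous Htt stood at 21.7 and 21.4 (the authors' deposited table: q = 0.997).

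**Figure D1:**
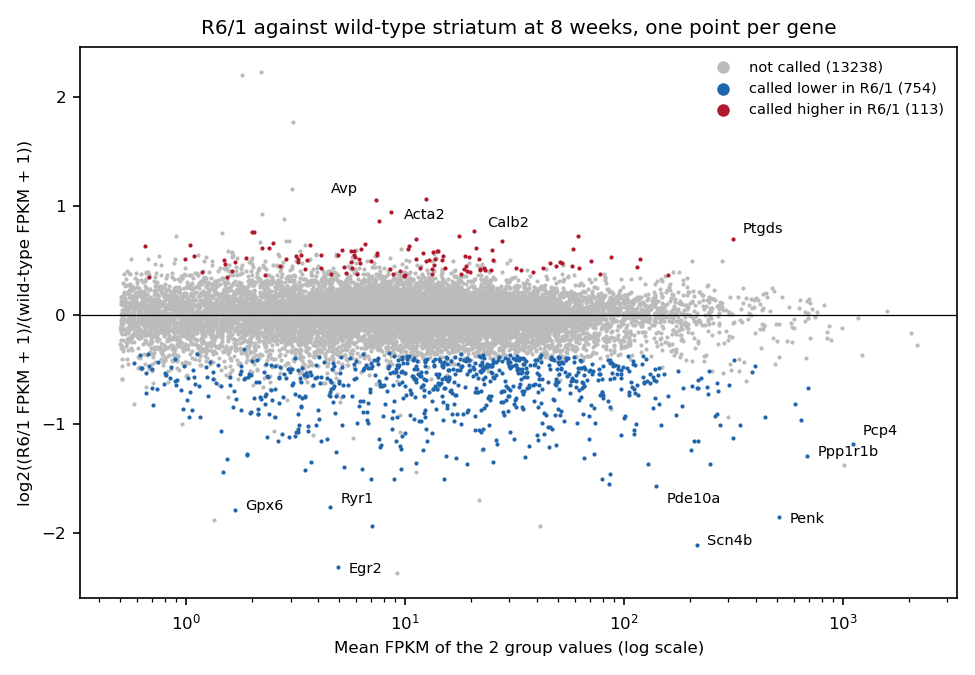
Change between R6/1 and wild type at 8 weeks (vertical axis, log2 of FPKM + 1) against mean FPKM (horizontal axis, log scale), with each point a gene. The 754 genes called lower in the authors' deposited table (blue) reach -2.31 at Egr2, and the 113 called higher (red) reach 1.06 at Gm6682. Grey points beyond these, such as Pmch at 2.23, were not called.

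Of 40 listed genes shared by spiny projection neurons 38 fell and 1 rose, with a median change of -0.92 against 0.0059 for all genes. This list and those below were written by hand with earlier results of these data known. Their counts therefore describe the chosen members and are not an independent test of a cell type or pathway. Each count of calls is to be read beside the 5.35% of all genes that fell and the 0.801% that rose. Scn4b, a sodium channel subunit of these cells, fell from 350 to 80.4 FPKM (change -2.11; mm9, chromosome 9, 44947124 to 44962144). Ryr1, a calcium release channel, fell from 7.59 to 1.54. Pde10a, which degrades cyclic nucleotides, fell from 209 to 70.2 (change -1.56; mm9, chromosome 17, 8994609 to 9179513). The potassium channel gene Kcnh4 fell from 13.6 to 4.17, and Lrrc10b from 127 to 45.5. Among the most abundant members, Ppp1r1b, which encodes the dopamine-regulated phosphatase inhibitor DARPP-32, fell from 979 to 399, and Hpca, the calcium sensor hippocalcin, from 853 to 439. Ppp3ca, the catalytic subunit of calcineurin, fell from 770 to 438 (the authors' deposited table: q = 0.00300). Among members that fell the change ranged from -2.11 to -0.41, the smallest being that of the actin-binding Cap2 (72.0 to 53.8; the authors' deposited table: q = 0.0260). The exceptions were Gnal, which encodes an olfactory-type G protein subunit (173 and 125, q = 0.0873 in the authors' deposited table), and the orphan receptor Gpr149. Gpr149 rose from 2.78 to 4.38 (the authors' deposited table: q = 0.0245). Pcp4, a calmodulin-binding peptide and the most abundant gene that passed, fell from 1537 to 679. The rows for Ppp1r1b, Arpp21 and Spata2l share their listed position with another gene and may hold the same reads.

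**Figure D2:**
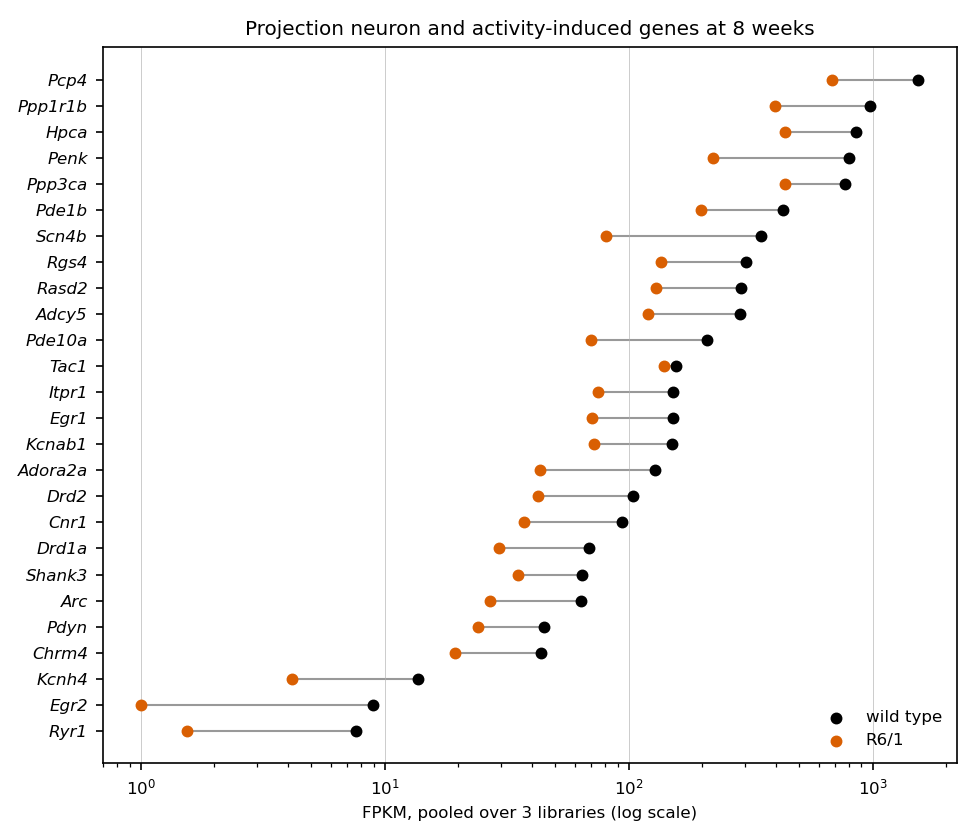
FPKM on a log axis of 26 projection neuron and activity-induced genes in wild type (black) and R6/1 (orange), each point the pooled value of 3 libraries. Scn4b goes from 350 to 80.4 and Egr2 from 8.92 to 1.01, while the points of Tac1 (156 and 139) lie close together.

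Markers of each output pathway fell. Of 13 indirect pathway members 7 fell (median change -0.83): Penk, the enkephalin precursor, from 803 to 222, and Adora2a, an adenosine receptor, from 128 to 43.3. Drd2 fell from 104 to 42.3 and the orphan receptor Gpr6 from 32.2 to 13.2. Gpr52, another receptor of these cells, stood at 32.1 and 13.1 and did not pass (the authors' deposited table: q = 0.0862); its row shares its position. Of 15 direct pathway members 4 fell (median change -0.05): Drd1a from 68.4 to 29.5, the muscarinic receptor Chrm4 from 43.5 to 19.3, the dynorphin precursor Pdyn from 44.8 to 24.2 and Slc35d3 from 14.9 to 9.24. In the authors' deposited table Tac1, the substance P precursor, was at 156 and 139 (q = 0.724). Isl1, a transcription factor of direct pathway neurons, was at 4.76 and 6.21 (the authors' deposited table: q = 0.314). Whether the lists differ was not tested. The change was -1.19 for Drd1a and -1.28 for Drd2. Of 11 markers of the matrix compartment 6 fell (median -0.41), among them Crym (85.0 to 45.0) and Id4 (80.2 to 47.2). Another was Rasgrp2, which is also on the list of genes shared by projection neurons. Of 13 striosome markers 4 fell, led by Nr4a1 (55.9 to 24.8), and Col11a1 rose (2.49 to 3.98), with a median of -0.30. Nr4a1 is also on the list of activity-induced genes. The mu opioid receptor gene Oprm1, a classical striosome marker, was at 1.07 in each group.

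The route from dopamine receptor to cyclic AMP fell at several steps. Of 34 genes of this signalling list 11 fell and 1 rose, with a median change of -0.08, or -0.02 without rows that share a position. Adcy5, the main adenylyl cyclase of the striatum, fell from 285 to 120. The G protein subunit genes Gng7 (334 to 205, q = 0.00673) and Gnb5 (130 to 94.3, q = 0.00785) fell in the authors' deposited table. Substrates and inhibitors downstream of protein kinase A also fell: Arpp21 from 356 to 138, Arpp19 from 132 to 61.2 and Ppp1r1a, an inhibitor of protein phosphatase 1, from 71.1 to 35.8. The rise was of Pkib, a protein kinase A inhibitor (1.10 to 1.91; the authors' deposited table: q = 0.0205). Of 19 phosphodiesterases 4 fell. They were Pde10a, Pde1b (430 to 197), Pde7b (53.5 to 30.1) and Pde2a (208 to 145; the authors' deposited table: q = 0.0299). Of 18 regulators of G protein signalling 8 fell, with Rgs9, which speeds shut-off of dopamine receptor signals, going from 185 to 71.3. Rgs4 went from 302 to 135 and Rgs14 from 36.9 to 15.7. Rgs13 rose from 0.291 to 1.00 (the authors' deposited table: q = 0.0399) and passed the level filter only through R6/1.

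Genes of calcium and lipid signalling fell in part. Of 41 genes for calmodulin-binding proteins, calmodulin kinases and calcineurin 13 fell and 2 rose (median change -0.28). Camk2n1, an inhibitor of calmodulin kinase II, fell from 452 to 224, whereas its relative Camk2n2 rose from 46.4 to 71.0 (the authors' deposited table: q = 0.0492), in a row that shares its position. Nrgn, which binds calmodulin at synapses, fell from 853 to 536 (the authors' deposited table: q = 0.00300), and the kinases Camk4 (56.6 to 30.0) and Camkk2 (70.5 to 42.7) fell too. The other rise was of Calb2, the calcium buffer calretinin, from 15.1 to 26.4. Of 49 genes of phospholipase C, inositol phosphate and diacylglycerol signalling 11 fell and 1 rose (median -0.08). Itpr1, the inositol trisphosphate receptor, fell from 151 to 75.1 and Itpka, which removes its ligand by phosphorylation, from 95.2 to 42.8. Prkcb, a diacylglycerol-activated kinase, fell from 227 to 120 (the authors' deposited table: q = 0.00673). Of 29 genes for calcium stores and pumps 8 fell (median -0.23): beside Itpr1 and Ryr1, the plasma membrane pump Atp2b1 went from 197 to 97.5 and the exchanger Slc8a2 from 107 to 61.4.

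Small G protein regulators fell in 15 of 55 cases (median change -0.15) and none rose in the authors' deposited table. Rasd2, the striatal G protein Rhes, fell from 287 to 129. The exchange factors Rasgrp2 (81.8 to 40.8), Ngef (236 to 132) and Kalrn (62.1 to 38.6) fell, as did the GTPase activator Rap1gap (149 to 97.5). In the MAP kinase list 6 of 51 fell (11.8%, against 5.35% of all genes) and none rose (median -0.08). They included Hras1 (80.2 to 50.8), the feedback inhibitor Spry2 (34.6 to 21.0) and Rps6ka5 (16.2 to 9.56), a kinase that acts on CREB and histone H3. Of 19 dual-specificity phosphatases, which switch MAP kinases off, 5 fell: Dusp14 from 36.4 to 15.9, Dusp6 from 25.2 to 13.1, Dusp1 from 20.1 to 10.9, Dusp18 from 9.83 to 5.92 and Dusp7 from 24.3 to 17.6 (the authors' deposited table: q = 0.0129). Of 35 protein tyrosine phosphatases 3 fell (8.57%) and 1 rose (2.86%), against 5.35% and 0.801% of all genes. Ptpn5, the striatal-enriched phosphatase STEP, fell from 184 to 104.

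**Figure D3:**
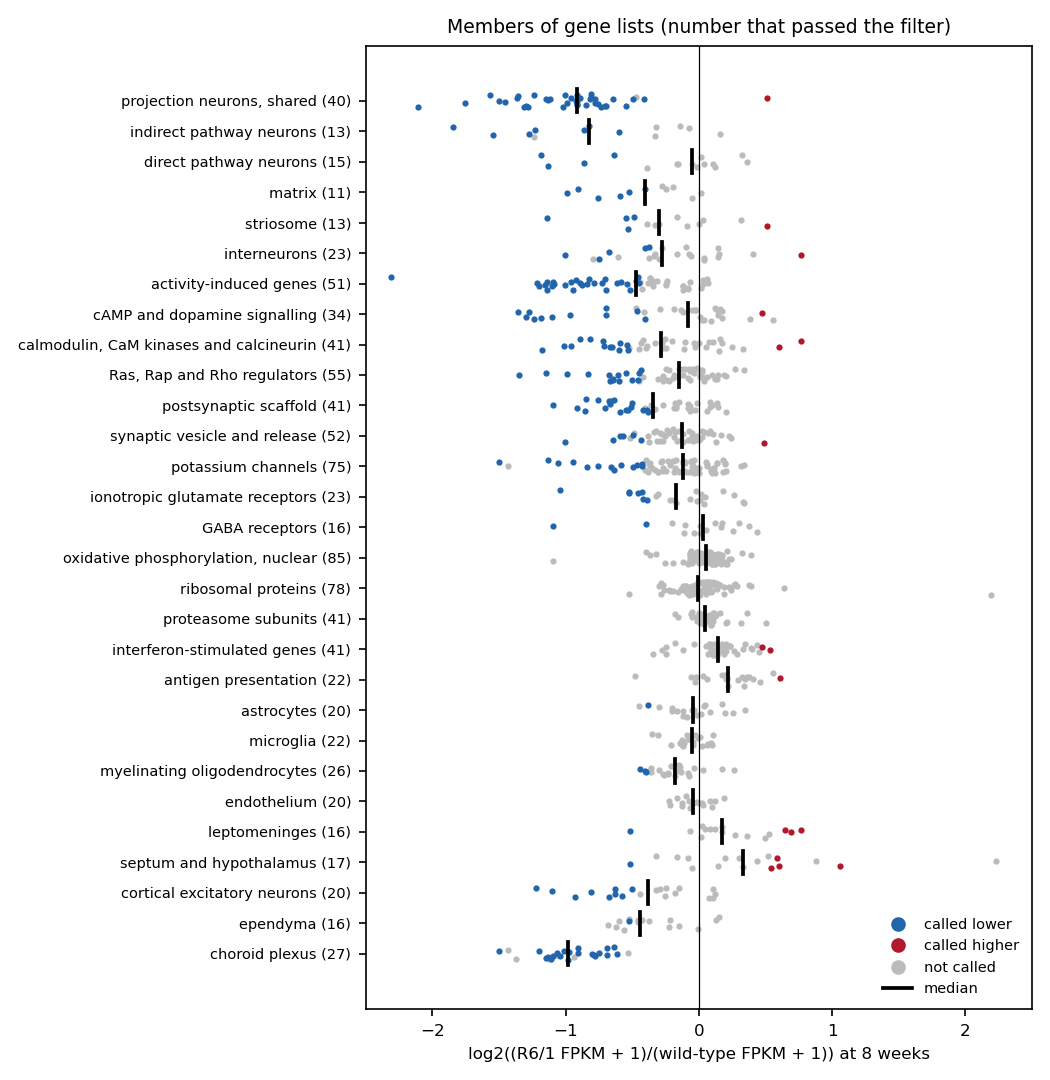
Change at 8 weeks on the log2(FPKM + 1) scale for the members of 29 gene lists, with each dot a gene, its colour the call in the authors' deposited table, and the black bar the median of the list. Projection neuron genes (median -0.92) and choroid plexus genes (-0.99) lie left of 0, and ribosomal protein (-0.0088) and oxidative phosphorylation genes (0.06) lie around it. The lists were written with earlier results of these data known.

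Ion channel genes fell in part of each family. Of 75 potassium channel genes 13 fell and none rose in the authors' deposited table (median change -0.12, or -0.21 at a mean of at least 2 FPKM). Beside Kcnh4, the cytoplasmic subunit Kcnab1 went from 151 to 72.2, the channel-interacting Kcnip2 from 132 to 68.1, the inward rectifier Kcnj4 from 101 to 59.5 and the leak channel Kcnk2 from 45.4 to 28.4. One of the 13, Kcne2 (6.42 to 2.38), is also a choroid plexus gene. Of 10 sodium channel genes 1 fell, Scn4b, and 2 rose. Of these Scn9a went from 1.22 to 2.11 (the authors' deposited table: q = 0.00430), in a row that shares its position. Of 23 genes of the calcium channel list 6 fell (median -0.19), none of them for a subunit that forms the pore. They were Cacng4 (49.5 to 28.3), Cacna2d3 (79.5 to 49.6), Cacng3, Cacnb1, Cacnb3 and Cacng1. Ano3, of the anoctamin family, fell from 66.8 to 35.0, and the pacemaker channel Hcn3 rose from 4.90 to 7.45 (the authors' deposited table: q = 0.0138).

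Some receptors for glutamate, GABA and other striatal transmitters fell. Of 23 ionotropic glutamate receptor genes 7 fell and none rose (median change -0.17, or -0.07 without rows that share a position). The NMDA receptor subunits Grin2b (17.3 to 12.4) and Grin2a (7.02 to 4.98, q = 0.0366) fell in the authors' deposited table. The kainate receptor auxiliary Neto2 fell from 31.0 to 14.5. Of 7 metabotropic glutamate receptor genes Grm4 (16.2 to 8.40), Grm3 (35.4 to 22.2) and Grm5 (60.6 to 42.6, q = 0.00900) fell in the authors' deposited table. Of 16 GABA receptor genes 10 had a higher value in R6/1 (median 0.03) and none rose. Gabrd, the subunit of extrasynaptic receptors (59.4 to 27.3), and Gabra4 (54.1 to 40.8, q = 0.0277) fell in the authors' deposited table. Cnr1, the cannabinoid receptor, fell from 94.0 to 37.3, and the opioid receptors Oprd1 (8.19 to 4.18) and Oprk1 (6.75 to 3.63) fell. Of 20 serotonin and adrenergic receptor genes 4 fell, led by Htr1b (18.2 to 9.59; the authors' deposited table: q = 0.00300).

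Synaptic genes fell on each side of the synapse. Of 41 scaffold genes of the postsynapse 18 fell and none rose (median change -0.34). Homer1 went from 55.2 to 25.3, Shank3 from 64.4 to 35.1, Dlgap3 from 174 to 96.3 and Ppp1r9b, which encodes spinophilin, from 292 to 185 (the authors' deposited table: q = 0.00900). Dlg4, the scaffold PSD-95, fell from 288 to 202 (the authors' deposited table: q = 0.0379). Of 52 genes for synaptic vesicles and release 6 fell, among them Sv2b (81.8 to 54.0) and Cplx3 (4.72 to 1.85), and Vamp1 rose from 42.2 to 59.5 (median -0.13). The difference between these lists was not tested. Of 46 actin regulators 11 fell, including Actn2 (37.4 to 19.3) and Tpm1 (159 to 103). Neurofilament, tubulin and microtubule genes fell in 4 of 52 cases (7.69%, against 5.35% of all genes), with a median of -0.03.

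Genes induced by neuronal activity fell in 28 of 51 cases and none rose in the authors' deposited table (median change -0.47). On the log2(FPKM + 1) scale Egr2, an immediate-early transcription factor, had the largest change of all genes that passed. It fell from 8.92 to 1.01 (change -2.31, at mm9 chromosome 10, 67000616 to 67004936). Its relatives Egr1 (151 to 70.6), Egr3 (51.5 to 21.8) and Egr4 (32.8 to 15.8) fell too. Arc, which acts in the removal of synaptic AMPA receptors, fell from 63.8 to 27.0. The nuclear receptors Nr4a1 (55.9 to 24.8), Nr4a2 (13.5 to 5.75) and Nr4a3 (10.7 to 5.17) fell together. Of the AP-1 family, Fosl2 fell from 11.8 to 5.67, Junb from 44.4 to 24.4, Fosb from 7.23 to 4.49 and Fos from 20.2 to 13.6 (the authors' deposited table: q = 0.00900). Jun (16.8 and 12.6, q = 0.0547) and Bdnf, a neurotrophin (3.65 and 2.61, q = 0.152), were not called by the authors' deposited table. In all, 46 of 51 values were lower in R6/1. Of 18 SRF and ETS family factors and their cofactors Srf (21.3 to 15.1, q = 0.00556) and Etv5 (17.9 to 11.6) fell in the authors' deposited table. Beside Elk1, the other ternary complex factors Elk3 (2.47 and 2.38) and Elk4 (6.04 and 5.30) did not pass.

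SRF binds the CArG box, and Elk-1 binds beside it at an ETS core, so the promoters of the activity-induced genes were read for these letters. RefSeq promoter windows (build GRCm38.p6, 250 bases before the start site to just after it) were matched for 11156 of the 14105 genes. A CArG box on either strand was present for 171 of these (1.53%). It was present for 2 of 21 activity-induced genes that fell, Egr2 and Srf (9.52%), and for Dusp5 among 19 that were not called (5.26%). Over all 32851 promoters of the table the share was 1.63%. The ETS core CCGGAA stood in 7 of the 21 (33.3%), in 2 of the 19 (10.5%) and in 28.9% of all matched genes. It was in 15.5% of matched genes that fell and 13.6% of those that rose, each below the 28.9% of all matched genes. By single window, it was in 14.9% of all promoters. Shares of promoters count each window once, whereas shares of genes count a match in any window of the gene. The sequence TGACG, the core of the cyclic AMP response element, stood in 15 of the 21 (71.4%) and 14 of the 19 (73.7%), against 34.8% of all matched genes and 20.8% of all promoters. Of 31 projection neuron genes that fell 7 held TGACG (22.6%) and none a CArG box. These matches describe letters and not binding. Genes with several start sites have more than 1 window, with a mean of 1.29 for all matched genes. The bases upstream of the start follow, 5′ to 3′, for the called genes Egr2 (chr10:67537316-67537565 and chr10:67537619-67537868, plus strand) and Srf (chr17:46556163-46556412, minus strand), and for Dusp5 (chr19:53528895-53529144, plus strand). They are the activity-induced genes with a CArG box, marked in capitals, among those with a matched window. Windows were matched for 21 of the 28 that fell and for 19 of the 23 not called. The remaining genes were not read, so whether they hold a box is unknown here.
Egr2, start upstream: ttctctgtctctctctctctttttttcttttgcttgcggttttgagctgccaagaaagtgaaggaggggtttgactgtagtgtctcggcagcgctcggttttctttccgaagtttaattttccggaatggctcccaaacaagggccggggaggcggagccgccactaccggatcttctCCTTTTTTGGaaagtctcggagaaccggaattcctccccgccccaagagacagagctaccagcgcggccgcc
Egr2, start downstream: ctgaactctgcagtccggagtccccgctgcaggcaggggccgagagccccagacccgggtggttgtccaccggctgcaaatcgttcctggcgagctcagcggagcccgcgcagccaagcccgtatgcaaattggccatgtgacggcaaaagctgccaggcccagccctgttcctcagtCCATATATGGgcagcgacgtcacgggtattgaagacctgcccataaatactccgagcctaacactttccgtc
Srf: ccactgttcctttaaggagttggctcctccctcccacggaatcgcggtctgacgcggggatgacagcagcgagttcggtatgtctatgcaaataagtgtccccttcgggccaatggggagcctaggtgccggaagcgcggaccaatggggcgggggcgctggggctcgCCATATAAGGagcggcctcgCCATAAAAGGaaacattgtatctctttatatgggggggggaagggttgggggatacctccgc
Dusp5: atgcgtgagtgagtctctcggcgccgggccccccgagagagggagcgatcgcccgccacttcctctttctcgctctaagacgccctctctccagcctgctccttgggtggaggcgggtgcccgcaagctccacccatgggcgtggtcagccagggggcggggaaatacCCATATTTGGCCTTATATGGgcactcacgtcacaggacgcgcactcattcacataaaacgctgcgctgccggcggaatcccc
In each Egr2 window shown the box begins 72 bases before the start site, and the letters differ between these windows. RefSeq holds 2 further Egr2 windows with a box, 73 and 133 bases before their starts, which are not shown because they overlap the downstream window and hold its box. Srf holds a pair of boxes between 82 and 52 bases before its start, and Dusp5 holds an adjoining pair between 82 and 62 bases. Dusp5, a phosphatase of MAP kinases, was at 3.82 and 2.79 (the authors' deposited table: q = 0.578).

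Among transcription factors of projection neurons 11 of 35 fell and none rose (median change -0.15). The retinoid receptor genes Rxrg (60.8 to 29.4) and Rarb (36.7 to 21.0) fell, as did Foxo1 (21.8 to 11.1), Foxp1 (41.6 to 22.7), Bcl11b (44.9 to 28.4), which encodes the projection neuron factor CTIP2, and Meis2 (91.7 to 62.6). Developmental factors that are normally silent in these cells were mostly absent from the genes described. Of 55 such genes 9 were listed at 8 weeks, and these 9 passed the level filter. None rose, where 0.801% of all genes rose, and Onecut2 fell from 2.14 to 1.53 (the authors' deposited table: q = 0.0432). Of the 9 values 6 were higher in R6/1 (median change 0.19, or 0.09 at a mean of at least 2 FPKM). Of 60 chromatin modifiers 1.67% fell and 3.33% rose, against 5.35% and 0.801% of all genes. The demethylase Kdm4b fell (28.0 to 18.6), and Sfmbt2 (1.26 to 2.84) and the oxidase Tet2 (8.66 to 11.4, q = 0.0292) rose in the authors' deposited table. Of 25 histone genes none was called, against 6.15% of all genes. Of 23 circadian clock genes 6 fell, among them Per1 (38.7 to 20.6), Npas2 (16.5 to 8.17), Bhlhe40 (36.6 to 22.6) and Dbp (95.9 to 63.6).

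Some genes for secreted signals and their receptors fell. Of 41 TGF-beta and BMP genes 10 fell (median change -0.18), including the ligand subunit Inhba (4.03 to 1.26), its antagonist Fst (1.67 to 0.400) and the receptors Acvr1c (10.8 to 4.39) and Acvrl1 (13.9 to 6.03). Of 40 Wnt pathway genes 6 fell (15%, against 5.35% of all genes). They were led by Sostdc1, a choroid plexus gene, and Tcf7 (4.63 to 2.35, q = 0.00430 in the authors' deposited table). In the growth factor list 3 of 36 fell (8.33%). They were Fgf3 from 2.63 to 0.456, the receptor Gfra2 from 9.58 to 5.73 and Igf2 from 26.2 to 18 (the authors' deposited table: q = 0.0385). Of 14 hedgehog genes Gli1, a target and effector of the pathway, rose from 0.641 to 1.34 (q = 0.0359), Disp2 rose and Gli3 fell in the authors' deposited table. Of 21 retinoid genes 8 fell and 1 rose (median -0.19). Beside Rarb and Rxrg, the retinol carrier Rbp4 fell from 13 to 5.26 and the retinoic acid hydroxylase Cyp26b1 from 6.55 to 3.86, while Aldh1a2, which makes retinoic acid, rose from 0.590 to 1.49 (the authors' deposited table: q = 0.0101). Aldh1a2 is also on the leptomeninges list, and Rdh5, another that fell, on that of choroid plexus.

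Several housekeeping and stress pathways held no call, where 6.15% of all genes were called. None of 85 nuclear genes of oxidative phosphorylation, 78 ribosomal protein genes, 41 proteasome genes, 35 autophagy and lysosome genes or 29 genes of mismatch and base excision repair was called in the authors' deposited table. Their medians were 0.06, -0.0088, 0.05, 0.04 and 0.05. Of 44 heat shock genes Dnajb5 fell (53.1 to 40.0; the authors' deposited table: q = 0.0199). Of 29 genes of the unfolded protein response Atf6, one of its membrane-bound sensors, fell from 16.9 to 10.4. Of 37 antioxidant genes Gpx6, a glutathione peroxidase, fell from 3.14 to 0.199 (change -1.79; mm9, chromosome 13, 21404071 to 21411493). Of 28 cholesterol synthesis genes 3 fell and 22 values were lower (median -0.25), among them Sc4mol, a sterol oxidase, from 57.8 to 40.8. Of 31 cell cycle genes 7 fell. They included the cell cycle inhibitor Cdkn1a (9.31 to 4.20), the polo-like kinase Plk5 (14.4 to 4.77) and Clspn (3.11 to 0.700), and the proliferation marker Mki67 was low in each group (0.946 to 0.409). Among 30 genes for huntingtin and its partners 1 fell, Rasd2, and 1 rose.

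The 113 genes that rose were spread over many lists, and 73 of them belonged to none. The largest rises were Gm6682, a predicted gene (7.70 to 17.1), Avp, the vasopressin precursor (4.44 to 10.3; the authors' deposited table: q = 0.0315), the smooth muscle actin Acta2 (5.61 to 11.7) and AW551984 (5.14 to 10.1). Slc17a6, the vesicular glutamate transporter of thalamic and other subcortical neurons, rose from 7.98 to 12.9. It is on the list of 14 thalamic markers, of which 2 rose, 1 fell (Synpo2) and 6 had lower values (median change 0.05). By contrast Slc17a7, the transporter of cortical neurons, fell from 269 to 169 (the authors' deposited table: q = 0.00430). In the same list of 26 transmitter genes the authors' deposited table called Ache, which breaks down acetylcholine, higher (36.1 to 49.1, q = 0.0111) and the GABA transporter Slc6a11 too (53.3 to 72.0, q = 0.0155). The G protein subunit Gng4 rose from 21.2 to 34.6 and the protocadherin Pcdh20 from 4.88 to 8.22. Of 41 interferon-stimulated genes 2 rose, among them Ifit1 (0.705 to 1.47; the authors' deposited table: q = 0.0366), and 34 values were higher in R6/1 (median change 0.14, or 0.26 with 0.1 added before the log2 in place of 1). Of 22 antigen presentation genes H2-D1, a class I histocompatibility gene, rose from 16.4 to 25.6 and 18 values were higher (median 0.22, or 0.34 with 0.1 added). B2m, the light chain of class I molecules, was at 71.8 and 91.5 (the authors' deposited table: q = 0.103). Paralogs of this family may share reads. None of 19 complement and inflammatory genes was called, against 6.15% of all genes.

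Interneuron markers fell in part. Few glial markers were called, but few genes of any kind were: 6.15% of all genes. The share was 5% of astrocyte genes and 11.5% of genes of myelinating oligodendrocytes. Of 23 interneuron markers 5 fell and Calb2 rose (median change -0.28). The peptide precursors Vip (7.24 to 3.11), Npy (120 to 74.8), Pthlh (3.74 to 1.81, q = 0.0111) and Sst (362 to 273, q = 0.0230) fell in the authors' deposited table. Pvalb (31.5 and 35.2) and the cholinergic marker Chat (7.80 and 5.81) did not pass. Of 20 astrocyte genes Slco1c1 fell (30.6 to 23.2; the authors' deposited table: q = 0.0419), and Gfap stood at 56.9 and 49.2. None of 22 microglial, 20 endothelial, 12 oligodendrocyte precursor or 8 blood genes was called, and their medians were -0.05, -0.04, -0.12 and -0.07. Of 26 genes of myelinating oligodendrocytes 3 fell, Ugt8a from 40.1 to 29.2 (q = 0.0111) having the largest change, and 23 values were lower (median -0.18) in the authors' deposited table.

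Markers of tissue beside the striatum also differed between the pools. Of 27 choroid plexus genes 21 fell, none rose and every value was lower in R6/1 (median change -0.99). The carbonic anhydrase Car12 fell from 22.8 to 7.42, the folate receptor Folr1 from 13.6 to 5.37, Otx2 from 4.70 to 1.76 and Kl, which encodes klotho, from 16 to 7.68. Ttr, the transthyretin gene that dominates this tissue, was at 1455 and 560 (the authors' deposited table: q = 0.127). The summed level of the list was 2075 FPKM in wild type and 870 in R6/1. Of 20 markers of cortical excitatory neurons 9 fell and none rose (median -0.38), including Neurod6 (10.6 to 5.62), Tbr1 (18 to 11.3) and Ctgf (13.8 to 5.33). Their summed level was 579 and 402 FPKM. Of 17 septal and hypothalamic markers 4 rose, Avp, Agt, Nts (11 to 16.9; the authors' deposited table: q = 0.0165) and Gpr165 (4.79 to 7.80; the authors' deposited table: q = 0.00300), and Peg10 fell; the median was 0.33. Pmch was at 0.125 and 4.26 (the authors' deposited table: q = 0.383). Of 16 leptomeningeal genes Ptgds (239 to 388), Fmod and Aldh1a2 rose and Igf2 fell (median 0.17, or 0.35 with 0.1 added). None of the defining markers named here was at 0 in either group. Nr4a2, which fell, is on both the cortical and the activity-induced list. The part of neighbouring tissue was not tested for any list. This holds for the retinoid, collagen, growth factor and peptide results, and for the activity-induced, synaptic, calmodulin and interneuron lists.

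By gene class, 743 of 13445 protein-coding genes fell (5.53%) and 111 rose (0.826%), against 5.35% and 0.801% of all genes. Of 403 long non-coding RNA genes 9 fell (2.23%) and none rose. As matched by symbol the class holds Zswim6, which is on the list of transcription factors above. Malat1, a nuclear RNA named after its values were seen, fell from 130 to 84.8 (the authors' deposited table: q = 0.00430). Genes that fell spanned a median of 33514 bases from start to end, against 24258 for all genes and 24637 for those that rose. On the X chromosome 14 of 491 genes rose (2.85%, against 0.801% of all genes) and 10 fell (2.04%, against 5.35%). The median change there was 0.07. Those that rose on X included Gprasp2 (46.6 to 77.4), which encodes a receptor-sorting protein, Arhgap36 (2.66 to 4.72) and Gpr165. The Y-linked genes, named after their values were seen, were present in each pool: Ddx3y stood at 15.5 and 19.2, Eif2s3y at 21.5 and 25.9, Kdm5d at 7.43 and 7.08 and Uty at 4.65 and 5.30, none of them called. Of 30 imprinted genes Ndn (97.2 to 132, q = 0.0129), Magel2 (2.18 to 3.53, q = 0.0101) and Grb10 (15.5 to 20.4, q = 0.0366) rose and Peg10 and Igf2 fell in the authors' deposited table. Collagen genes fell in 8 of 29 cases (27.6%) and rose in 1 (3.45%), Col6a1 going from 28.6 to 13.3. Col8a1 and Col9a3, which also fell, are choroid plexus genes. Solute carriers fell in 19 of 235 cases (8.09%) and rose in 4 (1.70%), against 5.35% and 0.801% of all genes. Genes named Zfp fell in 4 of 331 cases (1.21%) and rose in 1 (0.302%). The medians were 0.01 for solute carriers and 0.04 for Zfp genes.

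The same genes were read in the other genotype tables, which come from other libraries and were normalized separately, so levels are not set across them. In R6/1 against wild type at 10 weeks, each given control AAV and with 2 libraries, 711 of the 754 genes that fell were listed. Of these 633 (89.0%) had a lower value in R6/1, against 47.6% of all genes there. The authors' deposited table of 10 weeks called 219 of them lower, which is 30.8% of the 8-week list and 67.8% of the 323 shared genes it called lower. Over all genes it called 3.24%, 2.51% lower and 0.725% higher. Of 109 genes that rose, 96 were higher at 10 weeks (88.1%, against 52.4% of all genes) and 20 were called higher, 18.3% of the 8-week list and 21.7% of the 92 shared genes called higher there. Scn4b, for example, went from 172 to 38.6 at 10 weeks, Penk from 749 to 250, Pde10a from 54.8 to 20.7 and Arc from 118 to 36.1. Calb2 rose from 25.7 to 75.3 and Slc17a6 from 7.73 to 19.5 there. In the projection neuron list 39 of 40 values were lower at 10 weeks (median -0.78), and in the activity-induced list 42 of 49 (median -0.58).

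Other lists had the opposite sign at 10 weeks. All 25 choroid plexus genes listed there were higher in R6/1 (median change 1.11), and the authors' deposited table called 12 of them. Folr1 went from 2.88 to 11 (q = 0.0188), Kl from 2.36 to 6.95 (q = 0.00312) and Kcne2 from 1.30 to 7.13 (q = 0.00983), by the authors' deposited table. All 22 antigen presentation genes were lower there (median -1.06), with H2-D1 going from 125 to 56.6, and the interferon list had a median of -0.57. Altogether 15 genes that fell at 8 weeks were called higher at 10 weeks, and 2 that rose, H2-D1 among them, were called lower. The cortical list had medians of 0.02 at 4 weeks, -0.38 at 8 weeks and -0.73 at 10 weeks. The septal and hypothalamic list had medians of -0.40, 0.33 and 1.25. Ddx3y was at 4.53 in wild type and 0.0101 in R6/1 at 10 weeks, so those pools also differ in Y-linked transcripts. The difference between the ages was not tested.

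**Figure D4:**
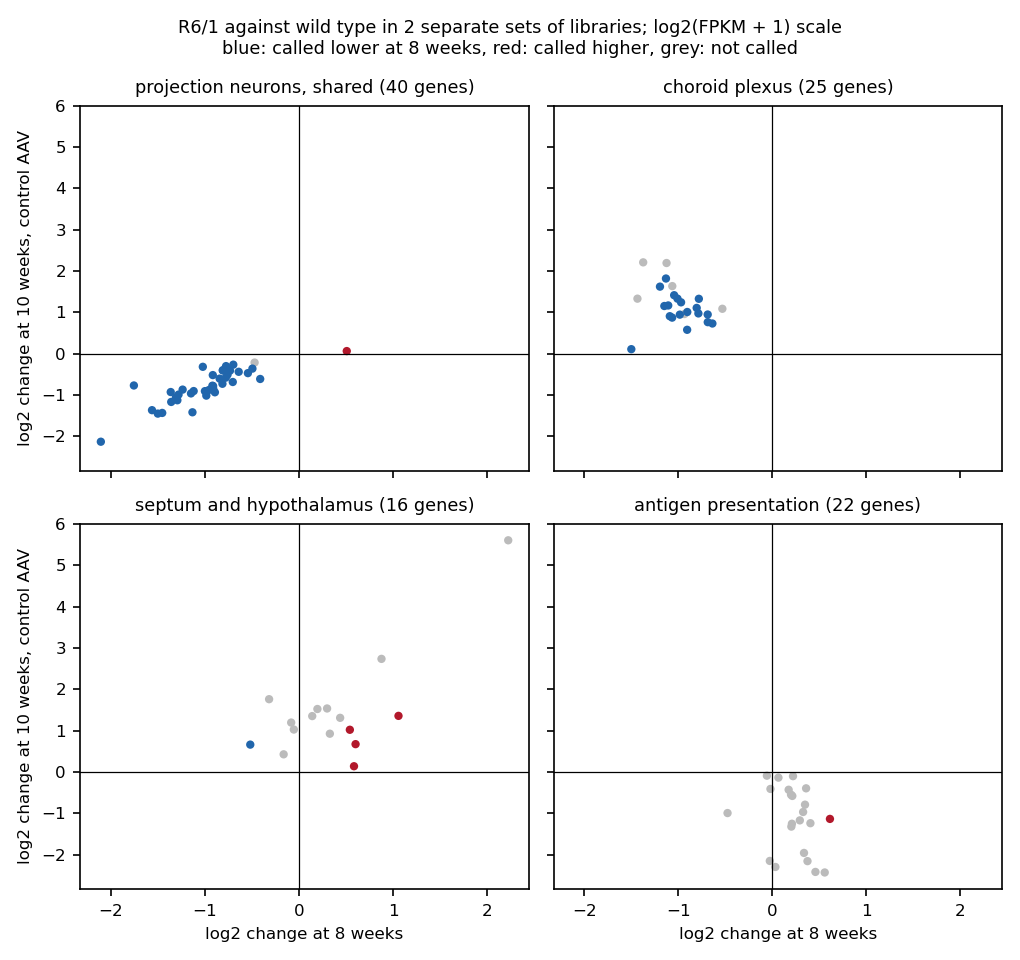
Change at 10 weeks with control AAV (vertical axis) against change at 8 weeks (horizontal axis), each on the log2(FPKM + 1) scale, for the members of 4 lists, with each dot a gene coloured by its 8-week call in the authors' deposited table. Projection neuron genes (medians -0.92 and -0.78) lie in the lower left, choroid plexus genes (-0.99 and 1.11) in the upper left, and most antigen presentation genes (0.22 and -1.06) in the lower right. The lists were written with earlier results of these data known.

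In CHL2 against wild type at 1 year, 752 of the genes that fell at 8 weeks were listed and 635 (84.4%) had lower values, against 49.5% of all genes. The authors' deposited table called 190 of them lower, 25.3% of the 8-week list and 68.1% of the 279 shared genes it called lower; over all genes it called 3.66%, 1.98% lower and 1.68% higher. Of 112 genes that rose 98 were higher in CHL2 (87.5%, against 50.5% of all genes) and 27 were called higher. These 27 were 24.1% of the 8-week list and 11.5% of the 234 shared genes called higher there. Of the genes that fell at 8 weeks, 8 were called higher in CHL2. They included Nr4a3 (4.56 to 7.38) and Grin2b (7.46 to 10.55), each at q = 0.00303 in the authors' deposited table. Ndn, which rose at 8 weeks, fell there from 230 to 131. In R6/1 at 4 weeks 530 of 753 genes that fell later had lower values (70.4%, against 49.3% of all genes), with a median change of -0.09. The authors' deposited table of 4 weeks called 10 of them lower and 5 higher. Among the latter were Grin2a (2.99 to 4.80) and Grin2b (7.18 to 11.3). Over all genes it called 0.463%, 0.183% lower and 0.281% higher. Of 112 genes that rose later 70 were higher at 4 weeks (62.5%, against 50.7% of all genes) and 1, Gpr149, was called so. Magel2 was called lower at 4 weeks (4.97 to 3.33; the authors' deposited table: q = 0.0145) and rose at 8 weeks.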

How the data were processed

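Striatal RNA libraries, 3 per group, were prepared with a TruSeq kit, per the labels. Alignment and quantification used TopHat, Bowtie, Cufflinks and Cuffdiff on mm9, per the submitters' processing notes, which give no versions. For the annotation and the strand of counting, nothing is stated in the labels or tables. The authors deposited 1 FPKM value per group and gene, their log2 fold change, a p-value in steps of 5e-05 and a q-value, which equals the Benjamini-Hochberg adjustment over the rows of the table. They also deposited a test statistic, a score that was not used. No library has a value of its own, so the planned limma fit, replicate block and leave-one-out fits were not run, and calls are the authors' deposited q below 0.05.

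Changes were computed as log2 of the ratio of FPKM + 1 for rows with a mean of at least 0.5, without microRNA and small nucleolar RNA rows, which held 7.08% of the FPKM in wild type and 9.44% in R6/1. Of the genes kept, 12.8% share their listed position with another row and may hold the same reads. Positions are on mm9 as listed, with no statement of the base from which starts are counted. The 80 gene lists, matched by symbol and synonym, were written by hand. The members and lists were chosen with earlier results of these data known. Named genes are list members (called ones with the largest changes first), the 25 largest falls and rises, the 10 most abundant genes called, Elk1 and Htt; others are marked. Lists are described by counts and medians, with no set test. Transcript classes and spans come from GENCODE and promoters from RefSeq. The change and call computation was checked on simulated data. Python 3.11.15, pandas 2.3.3, numpy 2.4.6 and matplotlib 3.10.9 were used. Values of some members are not reported here.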

Additional observations from a re-analysis of the deposited data

How the results depend on the processing

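The number of genes called lower was within 1.5 times of 754 under every alternative run: 513 at a q below 0.01 and 905 below 0.1 in the authors' deposited table, 764 without the level filter, 685 at a mean of at least 2 FPKM, 717 without rows that share a position and 761 with the adjustment over the kept rows. The number called higher went from 113 to 39 at a q below 0.01 and 180 at a q below 0.1 in the authors' deposited table, and otherwise lay between 100 and 115. The cause was not tested beyond the threshold itself. Of 42 list medians of at least 0.1 in size, 0 changed sign under the 5 alternatives run, and 3 smaller ones (mural cells, heat shock genes, hedgehog pathway) did. In all, 13 list medians moved by 0.1 or more under some alternative. With 0.1 added before the log2, choroid plexus moved from -0.99 to -1.27, leptomeninges from 0.17 to 0.35, interferon genes from 0.14 to 0.26 and antigen presentation from 0.22 to 0.34. At a mean of at least 2 FPKM, direct pathway genes moved from -0.05 to -0.11, cAMP and dopamine genes from -0.08 to -0.13 and potassium channels from -0.12 to -0.21. Without rows that share a position, direct pathway genes moved to -0.03, cAMP and dopamine genes to -0.02 and ionotropic glutamate receptors from -0.17 to -0.07. In that setting the phospholipase C list moved from -0.08 to -0.12 and the calmodulin list from -0.28 to -0.39. Indirect pathway genes moved from -0.83 to -0.71 without the level filter and to -0.96 with 0.1 added. No paired analysis was possible because each group has 1 pooled value, and leaving out a library was not possible for the same reason. Depth per library is unknown, so no limit of detection can be given.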

Other observations

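Some of the largest differences between the group values were not called. Snurf, an imprinted transcript, stood at 65.9 and 16.5 FPKM (the authors' deposited table: q = 0.590). Rpl26, a ribosomal protein gene, was at 0.0003 and 3.58 (the authors' deposited table: q = 0.705). The row of Snurf shares its position with another gene. These genes were chosen after their values were seen.

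Abundant genes without a place on the lists also fell. Fbxl16, an F-box protein gene, went from 578 to 303 (q = 0.00556), Ckb, the brain creatine kinase, from 460 to 334 (q = 0.0315) and Ptms, which encodes parathymosin, from 452 to 314 in the authors' deposited table. Tmem90a went from 118 to 41.1, and Coch, which encodes cochlin, from 36.6 to 13.8.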
